A study of Mus musculus with 22 samples.

Results

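Genes of pericellular proteolysis, 10 in all, were followed across 22 mouse RNA sequencing libraries: the matrix metalloproteinases Mmp2, Mmp3, Mmp9, Mmp13 and Mmp14, the tissue inhibitors of metalloproteinases Timp1, Timp2 and Timp3, the urokinase gene Plau and its receptor gene Plaur. These 10 were found by symbol among the 78298 genes of the count tables. The libraries came from Panc02, a mouse pancreatic cancer line, grown as an allograft tumour in female hosts (4 libraries) or male hosts (4), in co-culture with splenic natural killer (NK) cells of female (2) or male (2) donors for 24 h with interleukin-2 (IL-2), or cultured alone (2). NK cells, innate lymphocytes able to kill tumour cells, were also sequenced after 24 h with IL-2 in monoculture (2 female, 2 male) and fresh (2 female, 2 male). The series calls the tumour model syngeneic, and the labels give no strain, age, tumour age or injection site. They give IL-2 to the co-cultures and no treatment to cultured Panc02, so NK cells and IL-2 cannot be told apart there. They also do not say whether NK and Panc02 cells were separated after co-culture, or whether each library of a group came from its own animal or culture, so the p-values rest on a spread between libraries that may in part be technical.

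Matrix metalloproteinases are zinc enzymes, most of them secreted as inactive precursors, that cut collagens, laminins and other proteins around cells. Mmp14 encodes a membrane-anchored enzyme (MT1-MMP) that activates the Mmp2 product at the cell surface, in a complex that also needs the Timp2 product. The TIMP proteins bind and block active metalloproteinases, and Timp3's product is held in the matrix. Urokinase turns plasminogen into plasmin, which cuts fibrin and activates several metalloproteinases, and Plaur's product holds urokinase at the cell surface. In tumours, fibroblasts, macrophages, neutrophils and cancer cells are all known sources of these transcripts.

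Promoter sequence is shown for 4 of the genes, because Mmp3, Mmp13 and Plaur hold the same motif but had different directions in allografts, and Timp3 was the inhibitor with the largest difference. RefSeq promoters (GRCm38.p6) were matched for 7 members: Mmp3, Mmp13, Mmp14, Timp1, Timp2, Timp3 and Plaur. The 250 bases before the annotated start were searched on both strands for TGAGTCA, the motif of the AP-1 factors, for TATAAA and for the GC box GGGCGG. The last 120 of those bases are printed 5′ to 3′, with capitals marking any match on either strand.
Mmp3: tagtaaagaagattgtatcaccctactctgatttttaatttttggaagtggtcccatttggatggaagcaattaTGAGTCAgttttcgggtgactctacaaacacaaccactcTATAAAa
Mmp13: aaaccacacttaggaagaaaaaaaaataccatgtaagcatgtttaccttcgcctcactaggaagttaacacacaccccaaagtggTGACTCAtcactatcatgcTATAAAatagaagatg
Plaur: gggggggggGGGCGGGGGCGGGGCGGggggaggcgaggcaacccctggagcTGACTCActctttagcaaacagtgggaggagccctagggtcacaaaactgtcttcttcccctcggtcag
Timp3: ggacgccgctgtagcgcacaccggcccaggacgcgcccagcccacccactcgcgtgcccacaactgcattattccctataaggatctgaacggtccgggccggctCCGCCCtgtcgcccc
These stretches lie on the plus strand at chr9:7445702-7445821 (Mmp3), chr9:7272394-7272513 (Mmp13), chr7:24462363-24462482 (Plaur) and chr10:86300292-86300411 (Timp3). The AP-1 motif began 46 bases before the start of Mmp3, 35 before that of Mmp13 and 69 before that of Plaur, and 3 of the 7 members held it. Across 32851 promoter windows of the same length, 4.46% held it. TATAAA was found in Mmp3 and Mmp13, and in 12.4% of all windows. The GC box was found in 5 of the 7 (Mmp14, Timp1, Timp2, Timp3 and Plaur) and in 32.7% of all windows; of the 3 copies in Plaur, the last 2 share a base.

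Total counts were 13025549 to 46842646 per library, and levels are given as CPM, a gene's count relative to its library total on a fixed scale. Fresh NK cells and cultured Panc02 followed their labels by marker genes. The labels of the co-cultures give NK cells as their cell type. In the co-cultures, NK marker genes summed to 239 to 456 CPM and epithelial genes to 3928 to 3991 CPM. NK marker genes summed to 9150.2 to 10192 CPM in fresh NK cells, and the 8 epithelial genes to 4094 and 4150 CPM in cultured Panc02. Allografts held host transcripts: 12 fibroblast and pericyte genes summed to 11093 to 35453 CPM, against 1.76 and 2.28 CPM in cultured Panc02. The 12 macrophage genes summed to 3998 to 8129 CPM in allografts and 75.1 and 77.7 CPM in cultured Panc02, where the defining genes Adgre1, C1qa, C1qb and C1qc were at 0. In such bulk samples, fewer cells of a type and less RNA per cell cannot be told apart.

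In allografts, 9 of the 10 genes rose and Plaur fell relative to cultured Panc02 (edgeR quasi-likelihood test, Benjamini-Hochberg adjusted p below 0.05 over 23264 genes). This is a broad difference, as 62.1% of all genes tested passed, 38.8% higher and 23.3% lower. The median log2 fold change of all genes was 0.42. Counts of allografts and of cultured Panc02 were deposited separately. Any technical difference between these sets cannot be told apart from growth in a host. Mmp2, Mmp3, Mmp9 and Timp3, each at or below 2.11 CPM in culture, differed most, and Mmp14, Timp1, Timp2 and Plaur, each above 82 CPM in culture, least.

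Mmp2 (chromosome 8, 93553919 to 93580048, GRCm39), which encodes gelatinase A, had 0 counts in all Panc02 and co-culture libraries. Its lowest, median and highest allograft levels were 295, 395 and 1349.6 CPM, against 0 and 0 CPM in cultured Panc02. Set against a floor of 3 counts over both Panc02 libraries it was at least 16845-fold higher in allografts (adjusted p = 6e-05, edgeR), a bound that may be too high because mates of a pair were counted separately. Mmp9 (chromosome 2, 164782700 to 164797770), encoding gelatinase B, a product of neutrophils and macrophages among other cells, ranged from 39.3 to 169 CPM around a median of 59.2 in allografts. In cultured Panc02 it stood at 0.0427 and 0.142 CPM. The groups were far apart, and the log2 fold change was 9.89 ± 1.2 (SE, adjusted p = 0.000113).

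Mmp3 (chromosome 9, 7445822 to 7455975) encodes stromelysin-1, an enzyme that also activates other metalloproteinases. It ranged from 14.7 to 183 CPM in allografts, with a median of 87.2, against 0.128 and 0.095 CPM in cultured Panc02. The log2 fold change was 9.78 ± 1.61 (adjusted p = 0.000857). Mmp13 (chromosome 9, 7272514 to 7283331), the main interstitial collagenase of mice, had the widest allograft range as a ratio of highest to lowest (25.7), from 3.58 to 91.8 CPM with a median of 43.7, against 1.30 and 1.76 CPM in cultured Panc02. All 8 allografts lay above both cultures, and Mmp13 rose by a log2 fold change of 4.99 ± 1.51 (adjusted p = 0.0193). That call rested on the cultures: without Panc02 library 1 or 2 the adjusted p was 0.133 or 0.114, and with the low-count filter removed it was 0.0548.

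Mmp14 (chromosome 14, 54669069 to 54682821) ranged from 585 to 865 CPM in allografts, with a median of 749, against 238 and 231 CPM in cultured Panc02. It rose by a log2 fold change of 1.70 ± 0.16 (adjusted p = 6.41e-06). A gene without a symbol, ENSMUSG00000120849, lies inside Mmp14 on the same strand with 0 shared exon bases. It averaged 302 CPM in allografts and 64.6 CPM in cultured Panc02, so how reads divide between the pair is uncertain.

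All 3 inhibitor genes rose as well. Timp3 (chromosome 10, 86136236 to 86185370) differed most: its allograft levels were 153 CPM at the lowest, 203 at the median and 327 at the highest, against 1.88 and 2.11 CPM in cultured Panc02, a log2 fold change of 6.80 ± 0.45 (adjusted p = 9.61e-07). Timp1 (chromosome X, 20736405 to 20740974) ranged from 131 to 338 CPM around a median of 216 in allografts, against 82.3 and 83.9 CPM in cultured Panc02. Its log2 fold change was 1.49 ± 0.37 (adjusted p = 0.00559). Timp2 (chromosome 11, 118191887 to 118246566, minus strand) was the member with the highest CPM in allografts and in culture. It ranged from 1085 to 1455 CPM with a median of 1185 in allografts, against 824 and 862 CPM in cultured Panc02, so that the groups did not overlap although the log2 fold change was only 0.59 ± 0.15 (adjusted p = 0.00495). Without Panc02 library 1 the adjusted p was 0.0544 for Timp1 and 0.0694 for Timp2. Timp2 shares 332 exon bases (7.84%) with Cep295nl on the same strand, and reads there are uncertain.

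The urokinase pair moved in opposite directions. Plau (chromosome 14, 20886728 to 20893453) ranged from 36.7 to 76.2 CPM in allografts, with a median of 58.0, against 11.3 and 9.69 CPM in cultured Panc02. It rose by a log2 fold change of 2.56 ± 0.21 (adjusted p = 3e-06). Plaur (chromosome 7, 24161909 to 24175393) ranged from 40.2 to 95.9 CPM in allografts, with a median of 72.0, against 217 and 213 CPM in cultured Panc02. It fell, with a log2 fold change of -1.51 ± 0.22 (adjusted p = 0.000181), and every allograft lay below both cultures. Beside it, the summed 8 epithelial genes were at 15.5% to 41.2% of their mean in cultured Panc02 in the 8 allografts, and Plaur was at 18.7% to 44.6%. Of the 7 epithelial genes tested, 5 fell and 0 rose. How far the lower share of epithelial transcripts accounts for Plaur was not tested.

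**Figure D1:**
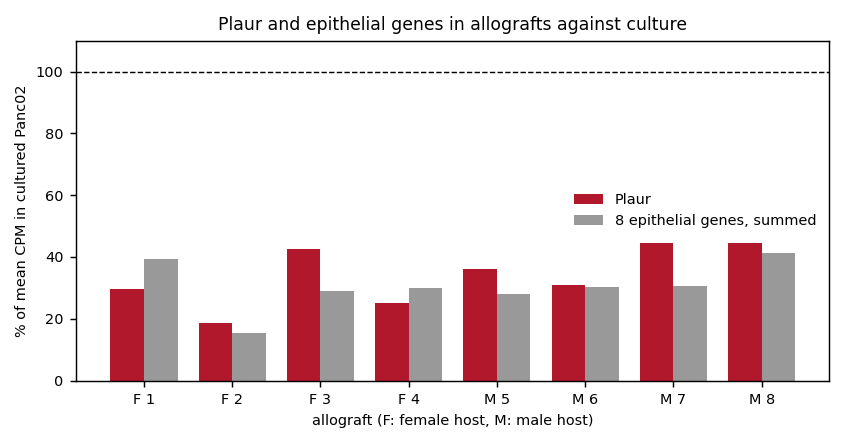
Bars give Plaur and the sum of 8 epithelial genes in each allograft (x axis, 4 female hosts then 4 male hosts) as a percent of their mean CPM in cultured Panc02 (y axis, dashed line at 100%). Plaur lay between 18.7% and 44.6%, the epithelial sum between 15.5% and 41.2%.

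**Figure D2:**
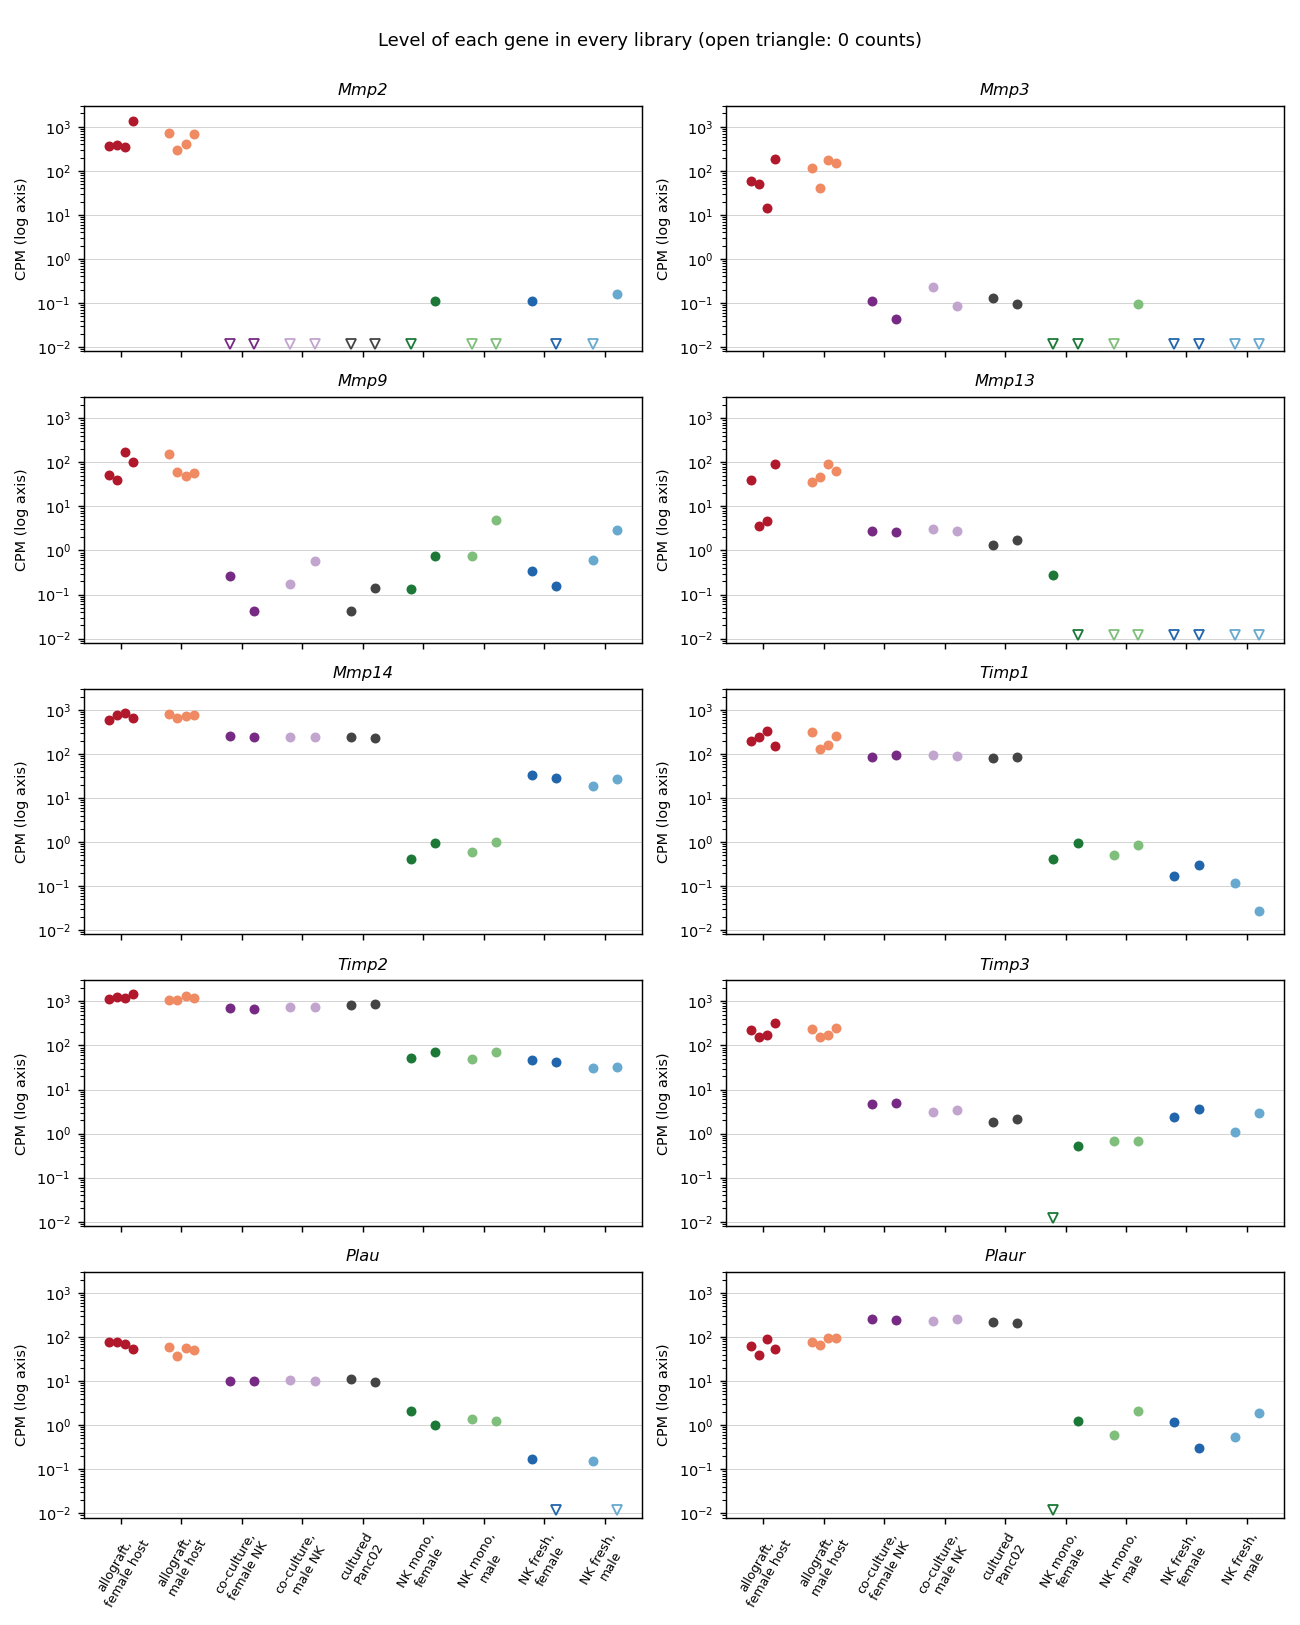
Each panel gives 1 gene, each point 1 library in CPM on a log axis, and open triangles mark 0 counts. Mmp2, Mmp3, Mmp9 and Timp3 stood far higher in allografts than in cultured Panc02, while Plaur was highest in the co-cultures.

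On a scale per transcript length (RPKM, which is CPM per kilobase of exon), inhibitors outweighed metalloproteinases in cultured Panc02, and less so in allografts. The 5 metalloproteinase genes summed to 388 ± 142 RPKM in allografts (SD, n = 8), against 39.5 and 40.5 RPKM in cultured Panc02. The 3 TIMP genes summed to 565 ± 79.0 RPKM in allografts, against 287 and 298 RPKM in cultured Panc02. The ratio of these RPKM sums was 0.454 to 1.21 in allografts and 0.132 and 0.141 in cultured Panc02. Only in allograft 4 (female host) did the metalloproteinases exceed the inhibitors. Messenger RNA ratios say nothing of protein or of active enzyme.

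**Figure D3:**
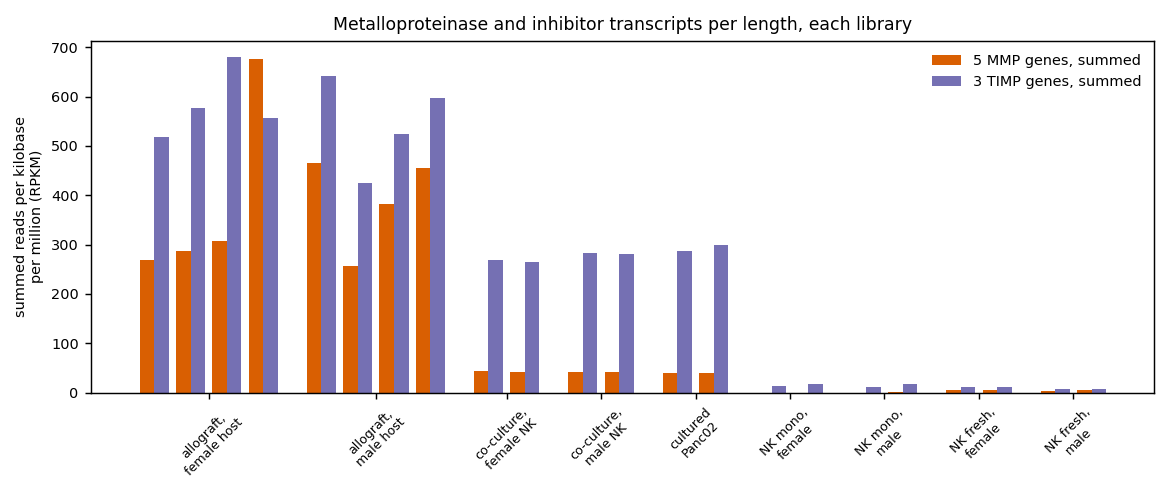
Bars give, for each library, the summed RPKM of the 5 metalloproteinase genes and of the 3 TIMP genes, grouped by condition. The metalloproteinase sum was 257 to 676 RPKM in allografts and 39.5 to 43.8 RPKM in co-cultures and cultured Panc02.

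The order of RPKM levels also differed. In allografts the medians ran from Timp2 (279.7 RPKM) and Timp1 (244) through Mmp14 (126), Mmp2 (117) and Mmp3 (48.4) to Plaur (27.5), Timp3 (24.9), Plau (24.5), Mmp9 (16.7) and Mmp13 (16.3). Neighbours in that order overlapped over the 8 allografts in every case except Timp1 and Mmp14, whose ranges were 147 to 380.2 and 98.2 to 145 RPKM. In cultured Panc02 the order was Timp2 (194 and 204 RPKM), Timp1 (92.7 and 94.5), Plaur (82.9 and 81.4), Mmp14 (39.9 and 38.8) and Plau (4.78 and 4.09), with the other 5 genes below 1 RPKM.

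Among the 8 allografts, the 4 genes of secreted metalloproteinases varied most. The coefficient of variation of CPM was 71.7% for Mmp13, 66.4% for Mmp3, 61.8% for Mmp2 and 59.1% for Mmp9, against 12.4% for Mmp14 and 10.6% for Timp2. Mmp3 and Mmp13 were both highest in allograft 4 (female host; 183 and 91.8 CPM) and next highest in allograft 7 (male host; 172 and 91.7 CPM). Mmp13 was lowest in allografts 2 and 3, at 3.58 and 4.74 CPM. Mmp9 and Timp1 were both highest in allograft 3 (169 and 338 CPM) and next highest in allograft 5 (152 and 316 CPM). Their order differed among the remaining tumours.

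Several marker sums varied between the same tumours. The 10 skeletal muscle genes summed to 39627 CPM in allograft 4, 24179 in allograft 2 and 11500 in allograft 7, and to 803 to 4704 CPM in the other 5. Mmp2 was highest in allograft 4, the most muscle-rich library, but stood at 390 CPM in allograft 2, close to the median. The fibroblast and pericyte sum was highest in allografts 5, 8 and 4 (35453, 34613 and 26705 CPM), where Mmp2 was also highest, at 714, 673 and 1349.6 CPM. The 12 neutrophil genes summed to 82.8 to 377 CPM and were highest in allograft 6, where Mmp9 was at 60.1 CPM. Allograft 3, highest for Mmp9 (169 CPM), had a neutrophil sum of 324 CPM. Allograft 2 was lowest for both (Mmp9 39.3 CPM), while allograft 4 had Mmp9 at 105 CPM and a neutrophil sum of 120 CPM. The part of any of these cells in the members' levels was not tested.

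**Figure D4:**
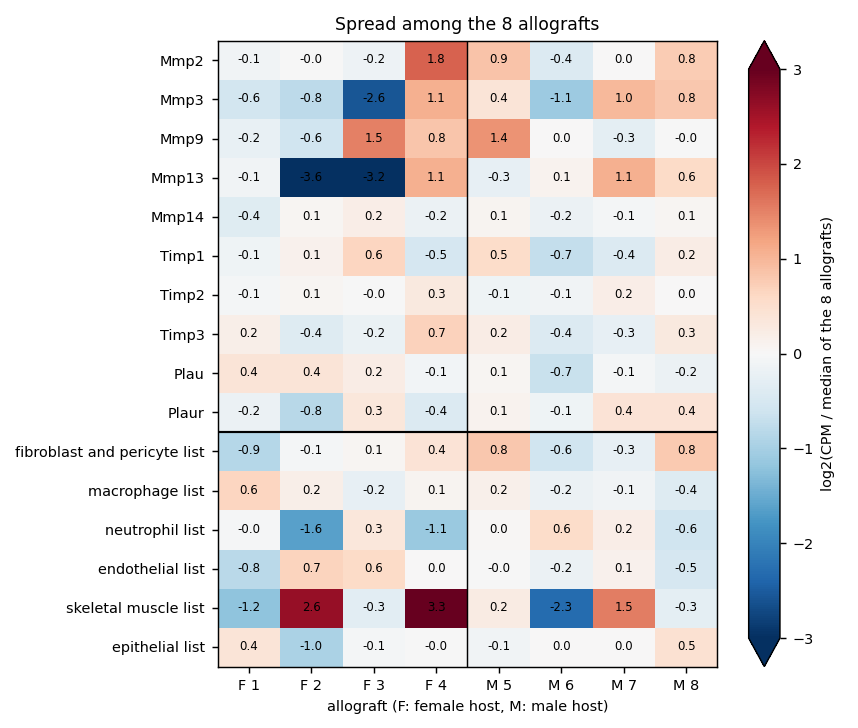
Each cell gives log2 of CPM over the median of the 8 allografts (columns, female then male hosts) for the 10 genes and, below the line, 6 summed marker lists. Mmp13 and Mmp3 spread widely, with allograft 4 high for Mmp2, Mmp3 and Mmp13, while Mmp14 and Timp2 stayed near 0.

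Other proteolysis genes moved mostly upward in allografts too, where 38.8% of all genes tested were higher and 23.3% lower. Of 13 other metalloproteinase genes tested, 10 rose and 1 fell. Mmp19 averaged 46.7 CPM in allografts and 1.10 CPM in cultured Panc02 (log2 fold change 5.48 ± 0.27, adjusted p = 8.7e-08), and Mmp23 35.6 and 0.135 CPM. Mmp25, a membrane-anchored enzyme of leukocytes, was at 9.51 CPM in allografts and had 0 counts in cultured Panc02, at least 282-fold. Mmp15, another membrane-type gene, fell to 30.9 CPM in allografts, against 63.0 CPM in cultured Panc02 (-0.97 ± 0.15, adjusted p = 0.000278). Of 18 ADAM and ADAMTS genes 14 rose and 1, Adam9, fell (-0.39 ± 0.12, adjusted p = 0.0191). Adamts7 averaged 22.7 CPM in allografts and 0.680 CPM in cultured Panc02, Adam19 56.9 and 0.319 CPM, Adamts4, an aggrecanase, 58.6 and 4.03 CPM, and Adam8 41.4 and 5.11 CPM.

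Of 12 plasminogen system genes 7 rose and 2 fell, where 62.1% of all genes passed, 38.8% higher and 23.3% lower. Plat, the tissue-type activator gene, averaged 132 CPM in allografts and 20.7 in culture (2.74 ± 0.23, adjusted p = 3.1e-06). Serpine2, whose product inhibits thrombin and plasminogen activators, averaged 55.9 CPM in allografts against 0 counts in culture, at least 1657-fold. Lrp1, a receptor that clears protease and inhibitor complexes, rose by 2.06 ± 0.22 (adjusted p = 1.77e-05). The protease-activated receptor genes F2rl1 (30.5 CPM in allografts, 215 CPM in culture) and F2r (120.3 and 227 CPM) fell, by log2 fold changes of -2.75 ± 0.24 and -0.97 ± 0.36.

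Of 13 cathepsin and cystatin genes 12 rose and 0 fell, where 38.8% of all genes were higher and 23.3% lower. Ctsc averaged 356 CPM in allografts and 5.22 in culture, and Ctsh 210.3 and 4.44 CPM. Ctss, a cathepsin of antigen-presenting cells, averaged 732 CPM in allografts against 0 counts in culture. Of 15 other inhibitor and activator genes 12 rose and 2 fell, Cd44 and Pcsk6. Cd44, encoding the hyaluronan receptor that can dock Mmp9's product, averaged 352 CPM in allografts and 1341 CPM in culture (-1.94 ± 0.18, adjusted p = 6.14e-06). The convertase gene Pcsk6 averaged 20.7 and 204 CPM (-3.26 ± 0.30, adjusted p = 9.6e-06). Against the median log2 fold change of 0.42 over all genes, list medians were 6.73 (other metalloproteinases), 3.49 (ADAM and ADAMTS), 1.86 (plasminogen system), 2.72 (cathepsins and cystatins) and 6.06 (other inhibitors and activators). With genes at 0 counts in culture set to their lower bounds, the first was 5.10 and the rest did not move. Macrophage genes (12 of 12), fibroblast and pericyte genes (12 of 12) and endothelial genes (10 of 10) rose in the same comparison, and their part was not tested. Beside the epithelial sum, at 15.5% to 41.2% of its level in culture, F2rl1 was at 7.7% to 20% in the allografts. Cd44 was at 14.1% to 43% and Mmp15 at 36.8% to 57.7%. The part of the lower epithelial share in these falls was not tested.

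Host sex was then compared within the allografts. Of the 10 genes, 0 passed between female and male hosts (edgeR, 20560 genes, of which 0.0146% passed), 1 had an unadjusted p below 0.05 and DESeq2 called 0. That gene was Plau, at 75.5, 76.2, 68.0 and 55.0 CPM in female hosts and 60.4, 36.7, 55.6 and 51.3 CPM in male hosts. The hosts overlapped, with a log2 difference, female minus male, of 0.47 ± 0.16 (unadjusted p = 0.0182, adjusted p = 0.251). Plaur had the opposite sign, -0.39 ± 0.24 (adjusted p = 0.464), and the TIMP genes lay between 0.12 and 0.18. Errors were widest for Mmp13 (-0.70 ± 0.98) and Mmp3 (-0.59 ± 0.76), so that differences of about that size could not be detected with 4 tumours per sex. Skeletal muscle sums were 1731 to 39627 CPM in female and 803 to 11500 CPM in male hosts, and these ranges overlapped.

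In co-culture with NK cells, differences from cultured Panc02 were small. Most of their RNA was that of Panc02: 225 NK-restricted genes put the share of NK RNA at 2.57% and 3.29% where donors were female and at 2.00% and 1.66% where they were male. Of the 8 members tested, 5 rose and 1 fell (edgeR, 18172 genes, of which 18.3% passed, 12.2% higher and 6.12% lower). Mmp2 and Mmp3 did not pass the low-count filter. Mmp2 had 0 counts in every co-culture, and Mmp3 stood at 0.0427 to 0.233 CPM. The same 2 Panc02 libraries serve this comparison and the one with allografts.

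Timp3 was at 4.66 and 4.85 CPM with female and 3.03 and 3.39 CPM with male NK cells, against 1.88 and 2.11 CPM in cultured Panc02. It rose by a log2 fold change of 1.02 ± 0.20 (adjusted p = 0.000951), and every co-culture lay above both cultures. Mmp13 was at 2.76 and 2.67 CPM with female and 3.14 and 2.80 CPM with male NK cells, against 1.30 and 1.76 CPM in cultured Panc02, a log2 fold change of 0.95 ± 0.24 (adjusted p = 0.00767). Both stayed far below their allograft medians of 203 CPM (Timp3) and 43.7 CPM (Mmp13). Plaur was at 252, 239, 235 and 261 CPM in the co-cultures, against 217 and 213 CPM in cultured Panc02, and rose by 0.25 ± 0.04 (adjusted p = 0.000184).

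Timp1 rose by 0.18 ± 0.05 (adjusted p = 0.0148) and Mmp14 by 0.12 ± 0.04 (adjusted p = 0.0205). Timp2 fell: it was at 726, 671, 743 and 756 CPM in the co-cultures, against 824 and 862 CPM in cultured Panc02 (-0.17 ± 0.03, adjusted p = 0.00135). For these 6 genes the estimated NK share, at monoculture levels, would bring at most 2.06 CPM (Timp2) and at most 0.0272 CPM of any other. Plau was at 9.92 to 10.4 CPM in the co-cultures, against 11.3 and 9.69 CPM in cultured Panc02 (0.00 ± 0.11, adjusted p = 0.987). Mmp9 was at 0.0427 to 0.591 CPM in the co-cultures, against 0.0427 and 0.142 CPM in cultured Panc02, too few counts for its log2 difference of 1.45 ± 0.96 to pass (adjusted p = 0.332).

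Without Panc02 library 1 or 2, 3 members passed in each case: Timp3 and Plaur passed in both, Timp2 without library 1 and Mmp13 without library 2. With the allografts added to share 1 estimate of the spread, 0 of the 6 passed (adjusted p 0.23 to 1). The biological coefficient of variation was 0.372 in the fit of allografts with cultured Panc02 and 0.0601 in that of co-cultures with cultured Panc02. Among the other lists, S100a10, encoding a plasminogen-binding cell surface protein, averaged 253 CPM in co-culture and 188 CPM in cultured Panc02 (0.48 ± 0.04, adjusted p = 7.84e-09). Cd44 (0.33 ± 0.03, adjusted p = 1.4e-07) and Furin (0.27 ± 0.04, adjusted p = 1.51e-05) also rose, Lrp1 (-0.34 ± 0.05, adjusted p = 0.000163) and Pcsk6 (-0.23 ± 0.04, adjusted p = 0.00014) fell. In all, 6 of 10 plasminogen system genes rose and 1 fell, 5 of 12 ADAM and ADAMTS genes rose and 2 of 12 cathepsin and cystatin genes rose. Of 8 other inhibitors and activators 3 rose and 1 fell, and of 7 other metalloproteinases 1 rose and 2 fell. Over all genes tested, 12.2% were higher and 6.12% lower, and the cathepsin and cystatin count lies near that share.

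Some of those list genes were also transcribed in NK monoculture. Adamts14 averaged 21.3 CPM in co-culture and 15.5 CPM in cultured Panc02, and the NK share alone would bring 5.64 CPM. For Adamts10, at 8.99 and 5.05 CPM, it would bring 5.07 CPM. Serpine2 (1.66 CPM in co-culture, 0 counts in culture) and Ctss (1.02 CPM, 0 counts) stood at 26.0 and 19.8 CPM in NK monoculture. For Serpine2 and Ctss the NK share would bring 0.644 and 0.454 CPM, less than their means in co-culture. The part of NK RNA in the levels of these genes was not tested.

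NK sex made no called difference in co-culture: 0 of 8 members passed (edgeR, 1.14% of 18172 genes did), 2 had an unadjusted p below 0.05 and DESeq2 called 0. These 2 were Timp2 (female minus male, -0.13 ± 0.04, adjusted p = 0.143) and Timp3 (0.53 ± 0.21, adjusted p = 0.317). Without the first co-culture of female NK cells Timp2 had an adjusted p of 0.0344. The higher NK share with female donors, given above, moved with these values, and its part in them was not tested.

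**Figure D5:**
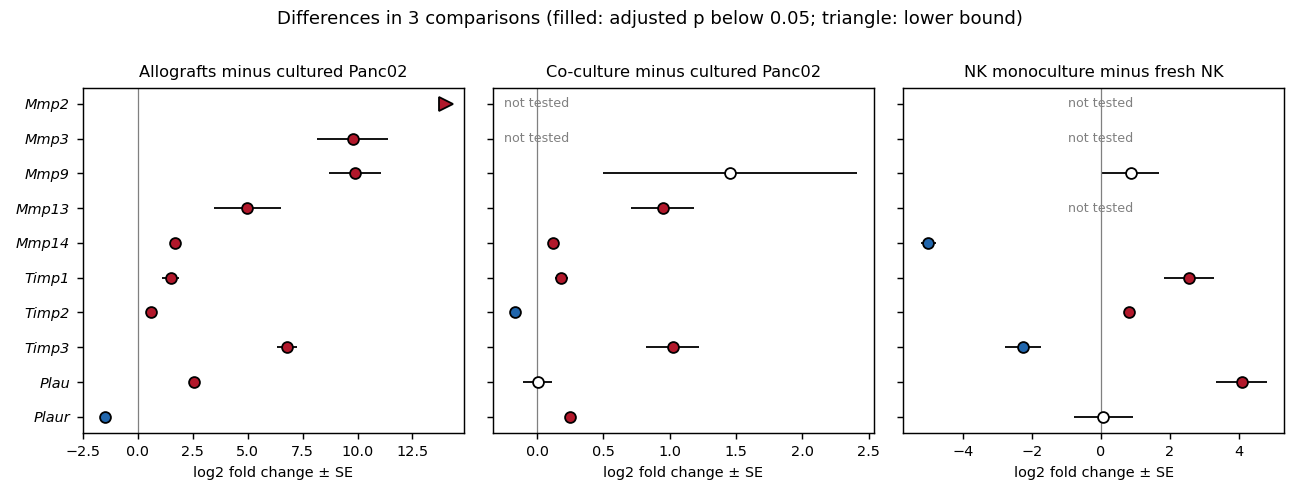
Points give log2 fold changes with SE for 3 comparisons on separate x scales, red where higher and blue where lower at an adjusted p below 0.05, and white where not called. The triangle for Mmp2 is a lower bound against a floor of 3 counts. Plaur was lower in allografts and slightly higher in co-culture, and Mmp14 was the member with the lowest log2 fold change in NK monoculture against fresh NK cells.

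Every NK library lay below both Panc02 cultures in CPM of Mmp13, Mmp14, Timp1, Timp2, Plau and Plaur. Between monoculture and fresh NK cells, 3 of the 7 members tested rose and 2 fell (edgeR, 19623 genes, of which 45.2% passed, 23.1% higher and 22% lower). Mmp2, Mmp3 and Mmp13 did not pass the low-count filter: their highest level in any NK library was 0.161, 0.0937 and 0.274 CPM. RNA of fresh cells was taken on oligo(dT) beads and that of cultured cells with phenol reagent, so culture and extraction cannot be told apart.

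Mmp14 fell most: it was at 0.410 and 0.941 CPM in female and 0.585 and 0.984 CPM in male monoculture, against 34.0 and 27.8 CPM in fresh female and 19.1 and 26.8 CPM in fresh male cells. The log2 fold change was -5.01 ± 0.22 (adjusted p = 8.7e-11). Monocultures held a trace of Panc02 transcripts, estimated over 65 genes at 0% and 0.279% (female) and 0.108% and 0.332% (male) of cultured Panc02, which would bring 0, 0.655, 0.253 and 0.778 CPM of Mmp14. Timp3 fell as well, to 0 and 0.526 CPM in female and 0.693 and 0.680 CPM in male monoculture, against 2.36 and 3.53 CPM in fresh female and 1.08 and 2.96 CPM in fresh male cells (-2.26 ± 0.53, adjusted p = 0.00272). Dendritic cell genes (9 listed) summed to 13.7 to 20.2 CPM in monoculture and 116 to 155 CPM in fresh cells, and 6 B cell genes to 98 to 116 and 142 to 237 CPM. The 12 fibroblast and pericyte genes summed to 242 to 381 CPM in monoculture and 112.7 to 186 CPM in fresh cells, nearly all of it Thy1 (279 and 137 CPM on average), and of the 7 tested 5 fell and 1, Thy1, rose. Of that list, 7 to 10 genes were at 0 in each monoculture and 2 to 6 in each fresh library. Their part in Mmp14 and Timp3 was not tested.

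Plau rose: it was at 2.12 and 0.996 CPM in female and 1.41 and 1.27 CPM in male monoculture, against 0.169 and 0 CPM in fresh female and 0.154 and 0 CPM in fresh male cells (4.07 ± 0.74, adjusted p = 0.000274). The Panc02 trace would bring at most 0.0348 CPM of it. Timp2, the member with the highest CPM in NK cells, was at 53.3, 72.0, 49.2 and 69.5 CPM in monoculture, against 46.6, 42.2, 30.6 and 32.4 CPM in fresh cells (0.81 ± 0.13, adjusted p = 0.000426). Timp1 stayed below 1 CPM in each NK library and rose by 2.55 ± 0.74 (adjusted p = 0.00961). Without the second female monoculture its adjusted p was 0.0554, and the Panc02 trace would bring up to 0.276 of its 0.410 to 0.968 CPM in monoculture.

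Mmp9 (0.85 ± 0.82, adjusted p = 0.448) and Plaur (0.07 ± 0.86, adjusted p = 0.965) did not pass. Mmp9 was highest in male sample 5, at 4.87 CPM in monoculture and 2.93 CPM fresh, and at most 0.758 CPM in the other 6 libraries. The 12 neutrophil genes were also highest in male sample 5, at 439 CPM in monoculture and 503 CPM fresh, against 25.7 to 183 CPM in the other 6. The co-culture of that number had the highest Mmp9 (0.591 CPM) and neutrophil sum (22.7 CPM) of the 4 co-cultures. The part of neutrophil RNA was not tested.

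Of the lists, plasminogen system genes divided evenly between directions in monoculture (10 tested, 4 up, 4 down). Among other metalloproteinases (8 tested, 0 up, 2 down) and ADAM and ADAMTS genes (11 tested, 1 up, 6 down) more fell than rose. The same held for cathepsins and cystatins (12 tested, 3 up, 5 down) and other inhibitors and activators (12 tested, 1 up, 4 down). Over all genes tested, 23.1% were higher and 22% lower. Mmp19 was at 0.197 CPM in monoculture and 5.72 CPM in fresh cells (-5.01 ± 0.43, adjusted p = 8.63e-08). Adamts14 fell to 240 CPM in monoculture, against 818 CPM in fresh cells (-1.67 ± 0.08, adjusted p = 8.1e-11). The thrombin receptor gene F2r rose, with 254 CPM in monoculture and 122 CPM in fresh cells (1.16 ± 0.06, adjusted p = 8.04e-11).

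Between female and male NK cells, 0 of 7 members passed in fresh cells (edgeR, 8.59% of genes did), where 1 had an unadjusted p below 0.05 and DESeq2 called 0. That gene was Timp2, at 46.6 and 42.2 CPM in female and 30.6 and 32.4 CPM in male cells (0.48 ± 0.18, adjusted p = 0.147). In monoculture 0 of 7 passed (0.0764% of genes did), with 0 at an unadjusted p below 0.05 and 0 by DESeq2. The test of whether the sex difference itself changed with culture gave 0 of 7 (1.65% of genes passed), with 0 at an unadjusted p below 0.05 and 0 by DESeq2. With the low-count filter removed, Mmp9 was called lower in female cells in both states (adjusted p 0.00142 fresh, 0.0155 in monoculture), with male sample 5 the library that stood apart, and Timp2 higher in fresh female cells (adjusted p = 0.00214).

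The genes nearest to each member in pattern were found over all 22 libraries, as the smallest root mean square difference of centred log2(CPM + 0.5) among 12224 genes. Mmp2 lay nearest to the collagen gene Col5a2 (0.34), then Igfbp3 and Gpx3. Mmp3 lay nearest to Apod (0.38), Mmp9 to the complement receptor gene C5ar1 (0.63) and Mmp13 to the kinin receptor gene Bdkrb1 (0.77). Mmp14's nearest was ENSMUSG00000120849 (0.45), which lies within it, and then Thbs1 (0.62). Timp1 lay nearest to Pcolce (0.39), Timp2 to Ckb (0.26), Timp3 to Palld (0.55), Plau to Tbx2 (0.46) and Plaur to the transcription factor gene Etv4 (0.49). These distances mostly follow the large gaps between conditions.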

How the data were processed

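The authors deposited raw read counts (integers) for each gene. The submitters' processing notes list featureCounts 2.0.6, HISAT2 2.2.1, cutadapt 4.4 and SAMtools 1.19.2, and GRCm39 as the genome. Reads were counted on the reverse strand over exons, mates were counted separately and multi-mapping reads were counted, per the file headers. Of genes with 1 to 20 counts, 66.4% to 78.6% had an even count, because read pairs enter as pairs, and intervals from counts are too narrow. Symbols matched 51498 of 78298 IDs. Differences were tested with edgeR 4.0.16 (quasi-likelihood, robust, TMM, filterByExpr) in R 4.3.3, adjusted over all genes at 0.05, and SE is the fold change over the square root of F. Fits used 8 allografts and 2 Panc02, 8 allografts, 4 co-cultures and 2 Panc02, or 8 NK libraries. DESeq2 1.42.0 was an alternative. Fitting was tested on counts simulated with a fixed spread. This was smaller than that of the allografts, slightly smaller than that of the NK libraries and larger than that of the co-cultures. The test therefore does not cover the spread of allografts or of NK libraries. The main fits did not pair NK libraries by sample number. Library names carry that number across fresh cells, monoculture and co-culture, but the labels do not say that it marks a shared source. Deviations of libraries with the same number were nearly uncorrelated (0.0155 female, 0.0949 male), which cannot settle whether they were paired. Named list genes are the called ones with smallest p, up to 4 a list, with up to 2 called in the other direction; a gene the rule names is not reported here. Members and lists were chosen with earlier results of these data known.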

Additional observations from a re-analysis of the deposited data

Results flagged for a closer look

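Of 20 sets of 4 allografts (10 genes, hosts of each sex), 2 held a tumour far from the other 3. Chance flags about 1 in 20 independent sets of normally distributed values. These sets share the same tumours and hold untransformed CPM, so the count cannot be set against that rate. Mmp2 was at 1349.6 CPM in allograft 4 against 356 to 390 CPM in the other tumours of female hosts, a gap of 0.965 of the range, above Dixon's 95% critical value. Mmp9 was at 152 CPM in allograft 5 against 47.9 to 60.1 CPM in the other tumours of male hosts, a gap of 0.882 of the range.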

How the results depend on the processing

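Of 302 alternative values of the 21 called differences, 278 kept direction and call, 24 lost the call and 0 reversed. The members called in co-culture against cultured Panc02 numbered 0 when 14 libraries with Panc02 cells shared a fit, and 3 to 6 without 1 library. For NK sex in co-culture the count without 1 library was 0 to 1. For NK sex in fresh cells it was 2 with no filter on low counts and 0 to 1 without 1 library, and for NK sex in monoculture 1 with no filter. Over all genes, host sex called 545 genes with DESeq2 and 14 with no filter, against 3, and co-culture against Panc02 called 851 in the 14-library fit, 1527 without Panc02 library 1 and 1934 without library 2, against 3325. The median log2 fold change of all genes in allografts was 0.39 under median-ratio scaling and 0.90 with no filter, against 0.42.

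The sample number as a replicate block, a pairing that the labels do not state, gave 7421 genes and 5 members in monoculture against fresh cells. In the fits with cultured Panc02, only numbers 1 and 2 occur in both groups. All other allografts or co-cultures then stand alone in their block and add nothing to the difference. There Mmp13 (edgeR, adjusted p = 0.0997) and Timp2 (0.0552) were not called in allografts. Nor were Mmp14 (0.078) and Timp1 (0.068) in co-culture. These lost calls cannot tell an effect of pairing from the loss of libraries. Reversals fell among differences that had not passed, and the cause was not tested. Plau in co-culture was -0.0020 under median-ratio scaling, -0.0030 with no filter, -0.031 with the block and -0.0050 in the 14-library fit, Mmp14 by host sex -0.017 with no filter and -0.0021 with DESeq2, and Plaur in monoculture -0.024 with the block. Without 1 library, log2 differences by host sex ran over -0.46 to 0.50 (Mmp2), -0.22 to 0.75 (Mmp9), -0.078 to 0.091 (Mmp14), -0.090 to 0.37 (Timp1) and -0.086 to 0.32 (Timp3), and Plau in co-culture over -0.10 to 0.12. By NK sex in co-culture they ran over -0.062 to 0.0046 (Mmp14), -0.15 to 0.013 (Timp1) and -0.12 to 0.033 (Plaur), and in monoculture against fresh cells over -0.087 to 1.63 (Mmp9) and -3.65 to 0.75 (Plaur). By sex in fresh cells they ran over -0.055 to 1.41 (Timp3), -4.10 to 4.81 (Plau) and -2.07 to 0.54 (Plaur). By sex in monoculture they ran over -0.97 to 0.35 (Mmp14), -0.75 to 0.51 (Timp1), -0.20 to 0.32 (Timp2), -0.44 to 0.61 (Plau) and -8.45 to 0.13 (Plaur), and for sex by culture over -1.64 to 2.08 (Mmp9), -4.66 to 4.29 (Plau) and -7.84 to 1.09 (Plaur). Depth limits members below 1 CPM, where single read pairs move the value.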
